A study of Mus musculus with 4 samples.

Results

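Granulocyte-like cells are the cells to which the deposited annotation gives that coarse type, 207 of the 9925 cells in the data set. They were recovered by lung lavage of C57BL/6 mice and sequenced as single cells on the 10x Genomics platform (3' chemistry, version 2), where a molecular tag (UMI) marks each captured RNA molecule so that copies made by amplification count as 1. The control group breathed filtered air and then received saline (PBS) through the nose. The HDM group breathed filtered air and then received house dust mite, an allergen. The APM group breathed an aerosol of Afghanistan particulate matter, a mineral dust, and then received saline, and the HDM+APM group received both the dust and the allergen. Chamber sessions delivered dust at 5 mg/m3, lasted 6 hours and were held on 12 days. Nasal instillations began 9 days later, with 10 µg of allergen in the HDM and HDM+APM groups, on days 22 and 29 to sensitize and from day 36 to day 38 to challenge, and mice were lavaged on day 39. All groups shared the strain, the chamber schedule, the nasal instillations and the lavage (5 washes per mouse, 70 µm and 40 µm strainers, 60 to 80% of cells viable by dye).

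Each group is 1 library that pools 7 mice. No difference between groups therefore has a replicate check, no test was made, and each ratio describes these libraries only. All intervals are 95% intervals and cover counting error only.

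Granulocytes are short-lived white cells packed with granules of enzymes and antimicrobial proteins. Neutrophils answer chemokines through Cxcr2 and the growth factor G-CSF through Csf3r, and their cytosol is rich in calprotectin, the complex of S100a8 and S100a9. Eosinophils carry the receptors Ccr3, Il5ra and Siglecf and granule proteins such as Prg2, and accumulate in allergen-exposed airspaces of mice. Maturing neutrophils make most granule proteins in the bone marrow and lose those transcripts before they leave it.

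The HDM library held 132 granulocyte-like cells of 994, a share of 13.3% (11.2 to 15.5, exact binomial interval). The HDM+APM library held 39 of 1123, or 3.47% (2.48 to 4.72). The APM library held 29 of 3890, or 0.746% (0.500 to 1.07), and the control library 7 of 3918, or 0.179% (0.0719 to 0.368). The 4 intervals did not overlap. Only the HDM library held 50 or more such cells, and the 7 control cells are given as values without a comparison. The order depended on the denominator. Of cells other than alveolar macrophages, granulocyte-like cells made up 19.4% (8.19 to 36.0) in control and 16.6% (14.1 to 19.4) in HDM. They made up 15.0% (10.3 to 20.9) in APM and 4.03% (2.88 to 5.47) in HDM+APM. The intervals of control, HDM and APM overlap and set no order among these libraries.

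Shares of these cells also rested on shallow profiles. Their median was 782 UMIs in control, 647.5 in HDM, 744 in APM and 811 in HDM+APM, where the median of all other cells was 3419, 1543, 2647 and 4852.5. The shallowest cell of any type held 509, 500, 496 and 514 UMIs in these libraries, and 47 of the 132 HDM cells held under 600 UMIs, against 8 in APM, 1 in HDM+APM and 0 in control. Only 2, 10, 2 and 2 granulocyte-like cells of HDM, HDM+APM, APM and control held at least 1000 UMIs. Among all cells that deep the share was 0.285% (0.0345 to 1.03) in HDM and 0.946% (0.455 to 1.73) in HDM+APM, intervals that overlap, 0.0536% in APM and 0.0517% in control. Among cells under 1000 UMIs it was 44.5% in HDM, 43.9% in HDM+APM, 17.0% in APM and 10.2% in control. How many granulocytes fell under the deposited lower limit was not tested. The 207 cells held 151279 UMIs in all, 88642 of them in HDM, 35062 in HDM+APM, 21683 in APM and 5892 in control, so that 1 UMI is worth 11.3, 28.5, 46.1 and 170 CPM (a gene's share of the UMIs of those cells on a common scale). Of the 9883 cell barcodes, 42 occurred in more than 1 library, and 1 granulocyte-like cell carried such a barcode.

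**Figure D1:**
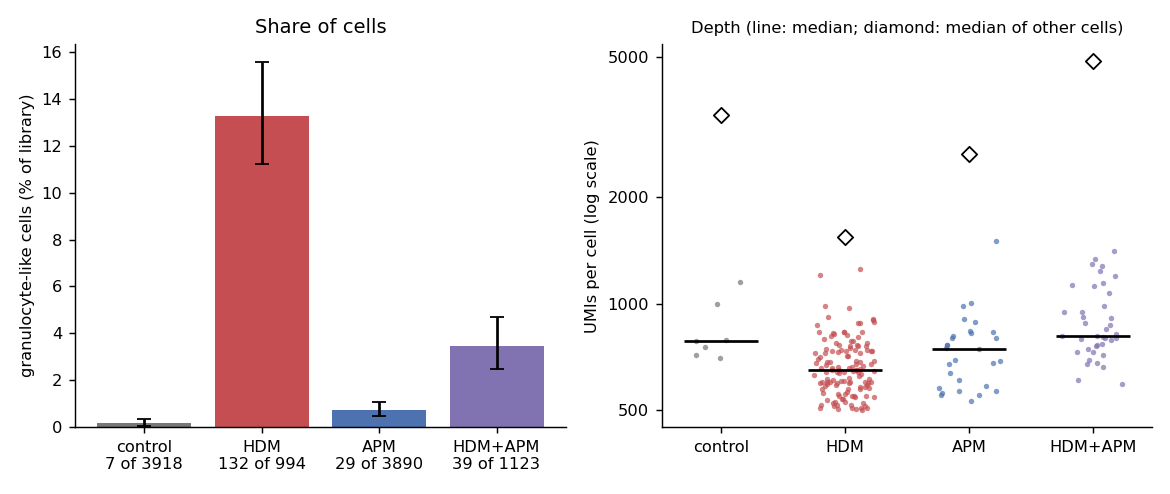
Left, granulocyte-like cells as a percentage of all cells of each library, with exact binomial 95% intervals. Right, UMIs per granulocyte-like cell on a log axis, with the median as a line and the median of all other cells of the library as a diamond. The HDM bar stands at 13.3%, and the cells lie near the lower end of the depth range in all 4 libraries.

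The genes that set these cells apart from all others carried a neutrophil profile. These genes also defined the cluster, so their levels are a description. The 5 markers attached to the label, S100a8, S100a9, G0s2, Ccl3 and Ccl4, were all among the 15 genes with the highest ratio of granulocyte-like over all other cells. Each of those 15 genes was highest in granulocyte-like cells among the cell types of the HDM library, and likewise in APM and in HDM+APM.

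S100a8 (chromosome 3, 90668978 to 90670035, plus strand, protein coding, GRCm38 annotation) stood at 20408 CPM in HDM, 23982 in APM, 17341 in HDM+APM and 25798 in the 7 control cells. S100a9, its partner in calprotectin (chromosome 3, 90692632 to 90695721, minus strand), stood at 8630 CPM in HDM, 9085 in APM, 7986 in HDM+APM and 18160 in control. T cells, which should lack calprotectin, held 80.6 CPM of S100a8 in HDM, 47.9 in APM and 10.2 in HDM+APM. After each cell was thinned to 500 UMIs, 78.0% of HDM granulocyte-like cells held an S100a8 UMI (79.5% unthinned) against 3.45% of HDM T cells (11.8% unthinned). Median depths behind these shares were 647.5 and 1327 UMIs. No cell of the types compared fell under 500 UMIs and was left out of the thinning.

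Ccl3 and Ccl4, neighbouring genes on chromosome 11 (83647844 to 83649355 and 83662584 to 83664683) that encode chemokines for monocytes and lymphocytes, formed the second feature. Ccl3 kept a narrow range across libraries, at 6882 CPM in HDM, 6134 in APM, 5048 in HDM+APM and 8147 in control. Ccl4 was not: it stood at 27549 CPM in HDM and 20706 in HDM+APM, but at 3551 in APM and 679 in control, the last from 4 UMIs. T cells held 452 CPM of Ccl4 in HDM, 20.5 in HDM+APM and 0 in APM and control.

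Other leading genes spanned several neutrophil functions. Mmp9, a gelatinase stored in neutrophil granules, stood at 699 CPM in HDM, 228 in HDM+APM (8 UMIs) and 46.1 in APM (1 UMI). Il1r2, the decoy receptor for interleukin 1, stood at 587, 542 and 461 CPM in HDM, HDM+APM and APM. Retnlg, a neutrophil resistin-like protein, stood at 316, 456 and 738 CPM, though epithelial cells of HDM+APM reached 294 CPM. G0s2, a lipase inhibitor and G0/G1 switch gene, stood at 1546 CPM in HDM, 941 in HDM+APM and 600 in APM. Csf1 (macrophage growth factor), Hcar2 (a receptor for hydroxy acids and niacin), Irg1 (the enzyme that makes itaconate), Slfn4 and Tarm1 completed the leading genes with names of known products. Gm5483, which belongs to the stefin A cluster of closely similar copies, and Gm13822, annotated as antisense, were also among the 15, and their counts may hold reads of near-identical or overlapping genes.

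By abundance, Malat1 (38718 CPM in HDM), a nuclear RNA, and the ferritin chains Fth1 (30313) and Ftl1 (16775) headed the cells, followed by the markers above, Tmsb4x, Actb, Eif1 and Cstb. Depth and RNA quality moved with the type. Mitochondrial genes took 1.08% of UMIs in HDM granulocyte-like cells against 4.26% in other cells, 0.530% against 2.90% in APM and 1.14% against 4.62% in HDM+APM. Ribosomal protein genes took 10.7% against 29.4%, 7.09% against 15.6% and 11.2% against 35.4%. The part that depth and RNA content play in the profile was not tested.

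Neutrophil and eosinophil markers were then compared. A gene is called higher or lower where the ratio of CPM was at least 2-fold and its interval excluded 1, among genes with at least 20 UMIs over both sides. Pooled over libraries, 15 of the 18 measured neutrophil markers were higher in granulocyte-like than in all other cells, where 9.13% of all 11903 genes were higher. The median log2 ratio of the list was 2.62, against -0.07 over all genes. Wfdc21 was lower (8.9% of all genes were lower), and it stood at 158 CPM in HDM granulocyte-like cells against 475 in HDM alveolar macrophages. The other cells of the pool were mostly alveolar macrophages, so the comparison was also made library by library: 12 of 13 measured markers were higher in HDM (11.3% of all genes), 8 of 12 in APM (3.57%) and 9 of 13 in HDM+APM (7.6%).

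Csf3r stood at 1218 CPM in HDM, 600 in APM and 570 in HDM+APM, with 0 UMIs in control. Cxcr2 stood at 429 CPM in HDM, 428 in HDM+APM and 323 in APM. Hdc, the enzyme that makes histamine, Clec4d and Trem1, innate receptors, and Mxd1, a Myc antagonist, were each higher within the HDM library. The granule genes made in marrow precursors were near the limit of detection: Ltf held 3 UMIs in HDM, 2 in APM and 1 in HDM+APM, and Lcn2 held 1, 0 and 1. Ly6g, a neutrophil surface marker and not a granule gene, was near that limit too, at 2, 0 and 0 UMIs. Padi4, which citrullinates histones, held 0 UMIs in all 4 libraries, which allows up to 33.8 CPM in HDM, 85.6 in HDM+APM and 138 in APM. Camp, Ngp, Mpo and Elane were not analysed here.

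The eosinophil list was not raised. Of its 10 measured members, 0 were higher in the pooled cells (9.13% of all genes), and Ear1, Ear2 and Alox15 were lower (8.9%). The list's pooled median log2 ratio was -0.09, close to the -0.07 of all genes. Within HDM, APM and HDM+APM, 5, 5 and 7 members were measured. Their medians were -1.25, -1.31 and -0.29, against -0.13, -0.24 and -0.18 over all genes. Ccr3, the eotaxin receptor, held 4 UMIs, all in 1 HDM cell. Prg2, major basic protein, held 1 UMI, and Il5ra, Alox15 and Cebpe held 0 in all 4 libraries. Epx, Prg3, Ear10, Clec4a4 and Gata1 were not analysed here.

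Siglecf, which eosinophils and mouse alveolar macrophages share, was the exception within libraries. It held 10 UMIs in 9 HDM cells (113 CPM, 54.1 to 207.5) and 6 UMIs in 6 HDM+APM cells (171 CPM, 62.8 to 372.5), with 0 in APM and control. It was higher than in all other cells within HDM and within HDM+APM. After thinning, 6.06% of HDM cells held a Siglecf UMI (6.82% unthinned), against 0.203% of HDM T cells (0.609% unthinned, median depth 1327) and 3.52% of HDM alveolar macrophages (13.1% unthinned, median depth 3279). Ear2, an eosinophil-associated ribonuclease that alveolar macrophages also make, stood at 113 CPM in HDM granulocyte-like cells and 48.9 in T cells, against 1924 in alveolar macrophages.

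Counted cell by cell, 122 of 132 HDM cells held 2 or more UMIs of the neutrophil list and fewer than 2 of the eosinophil list. The same held for 26 of 29 APM cells, 36 of 39 HDM+APM cells and 6 of 7 control cells. The neutrophil list includes S100a8 and S100a9, which also defined the cluster, so these counts are a description. A UMI of a neutrophil marker other than that pair was held by 117 of 132 HDM cells and 27 of 29 APM cells. In HDM+APM 35 of 39 cells held one, and in control 5 of 7. Cells with 2 or more UMIs of both lists numbered 3 in HDM and 0 elsewhere, and cells with the eosinophil list alone numbered 0 in all 4 libraries. Near the limit of 2 UMIs, 19 HDM cells, 7 APM cells, 8 HDM+APM cells and 1 control cell held exactly 1 eosinophil UMI. Outside the genes that macrophages share, 3 HDM cells and 0 cells of the other libraries held an eosinophil UMI. On these markers the label granulocyte-like held neutrophil-like cells in HDM, APM and HDM+APM. Of the 7 control cells, 6 held an S100a8 UMI, 4 S100a9, 5 Clec4d and 2 Retnlg. Cxcr2 and Mxd1 were each in 1, and Csf3r, Il1r2 and Mmp9 in 0, so the control cells were given no name. An eosinophil-like group was not detectable at this depth with the 12 eosinophil genes counted per cell.

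**Figure D2:**
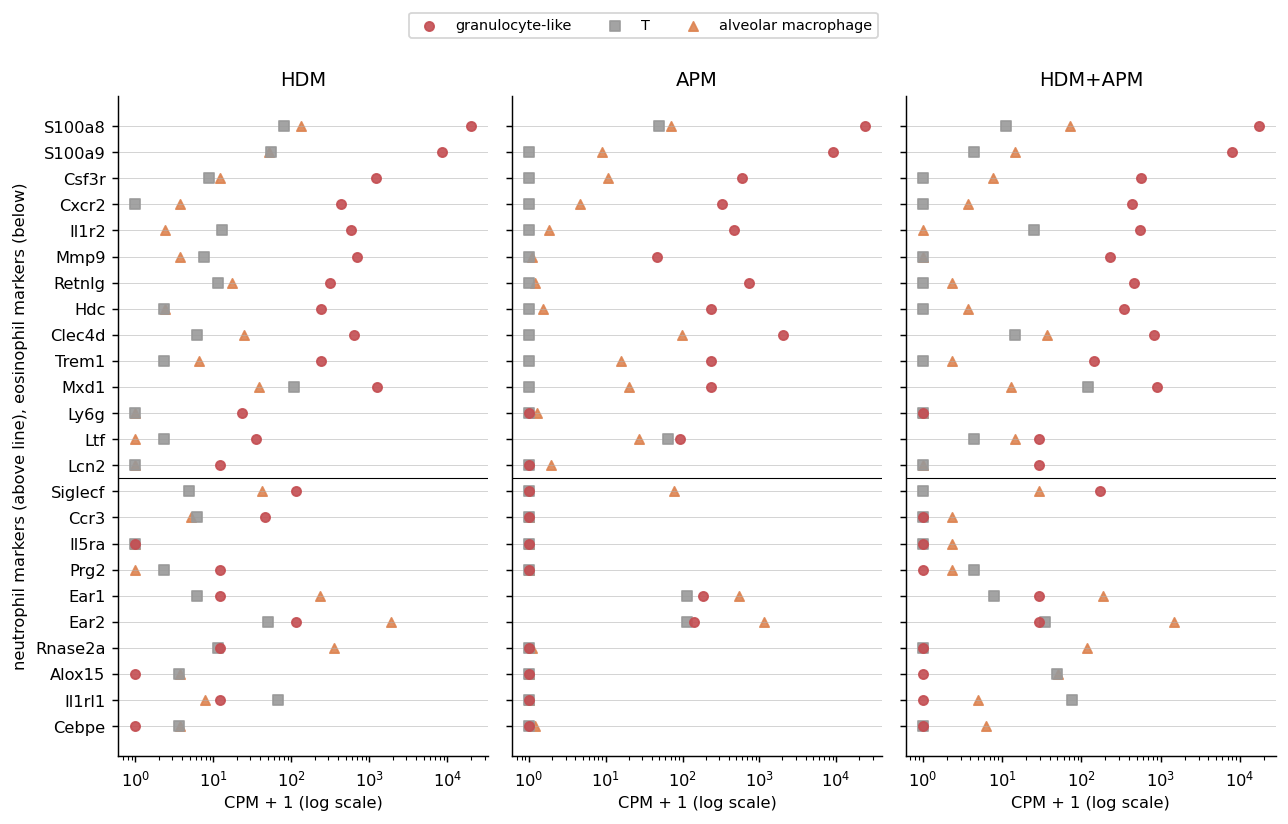
CPM plus 1 on a log axis for 14 neutrophil markers (above the line) and 10 eosinophil markers (below) in granulocyte-like cells, T cells and alveolar macrophages of the HDM, APM and HDM+APM libraries. Circles for granulocyte-like cells lie far to the right for S100a8 (20408 CPM in HDM) and at or near 0 for Il5ra, Prg2 and Cebpe.

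Markers of alveolar macrophages were partly shared. Of 14 measured, 10 were lower in granulocyte-like than in all other cells pooled (8.9% of all genes) and 0 were higher (9.13%). Within HDM 6 were lower (7.67% of all genes) and 1 higher (Cd9, against 11.3%). Within APM 10 were lower (2.49%) and 0 higher (3.57%). Within HDM+APM 2 were lower (2.87%) and 2 higher (Cd9 and Ctsd, against 7.6%). Their summed level was 11881 CPM in control, 7310 in HDM, 10746 in APM and 7815 in HDM+APM, against 19375, 43027, 19179 and 40051 in alveolar macrophages and 4172, 1155, 2525 and 1777 in T cells. Cd9, a tetraspanin, and Ctsd, a lysosomal protease, made up most of the HDM sum, at 3283 and 1861 CPM. Chil3, a chitinase-like protein of these macrophages, stood at 1433 CPM in HDM granulocyte-like cells, 693 in T cells and 32477 in alveolar macrophages, and the scavenger receptor Marco was at 0 in HDM and HDM+APM. The part of macrophage RNA in the profile was not tested. T and NK cell markers summed to 0 UMIs in control and APM, 23 in HDM and 3 in HDM+APM, and B cell markers to 0, 0, 5 and 14 UMIs in the same order. Within HDM, 7 of 9 T and NK markers were lower (7.67% of all genes) and 0 higher.

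Receptors, sensors and secreted mediators made up the rest of the profile. Of 21 measured chemotactic and growth factor receptors, 12 were higher in the pooled cells (9.13% of all genes) and 0 lower (8.9%), including C5ar1 (the C5a receptor), Ptafr (platelet-activating factor receptor) and Cxcr4. Of 21 innate sensing and Fc receptor genes, 14 were higher and 0 lower against the same shares, among them Tlr2, Clec4e and Fcgr4. Of 14 cytokines and decoys, 8 were higher and 0 lower, again against 9.13% and 8.9%, led by Il1r2, Il1b and Il1rn, the interleukin 1 receptor antagonist. Il1rn stood at 5133 CPM in HDM, 6075 in HDM+APM and 2583 in APM. Cxcl2, the chemokine that Cxcr2 reads, stood at 4129 CPM in HDM, 5904 in HDM+APM and 7656 in APM, and was found in 40 of 132, 15 of 39 and 14 of 29 cells.

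Immediate early genes (13 of 18 higher, 0 lower), NF-kB response genes (11 of 18 higher, 0 lower) and survival genes (11 of 18 higher, 1 lower) were also raised over the background of 9.13%. Mcl1, which keeps neutrophils alive, stood at 1467 CPM in HDM, 1169 in HDM+APM and 231 in APM. MHC class II genes were lower for 5 of 7, including Cd74, where 8.9% of all genes were lower. Cybb, the membrane subunit of the NADPH oxidase, was lower too, at 22.6 CPM in HDM against 878 in alveolar macrophages. All 20 interferon response genes measured were higher in the pooled cells. Within single libraries 17 of 20 were higher in HDM (11.3% of all genes), 18 of 20 in HDM+APM (7.6%) and 9 of 18 in APM (3.57%). In these libraries 0 were lower, where 7.67%, 2.87% and 2.49% of all genes were lower.

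Individual cells differed in which of the leading genes they held. In HDM, the UMIs of S100a8 and S100a9 together ran from 0 through a median of 11 to 122 per cell, and those of Ccl4 from 0 through 1.5 to 214. At a limit of 10 UMIs, 22 HDM cells were high for both, 49 for the S100 pair alone, 22 for Ccl4 alone and 39 for neither. In HDM+APM the numbers were 7, 9, 9 and 14, and in APM 0, 14, 1 and 14. Spearman's rho between the 2 sums over cells was -0.08 in HDM, -0.11 in APM and -0.09 in HDM+APM, a weak value in sparse counts whose cells share a library and depth range. Of the 22 HDM cells with 0 S100 UMIs, 18 held a UMI of another neutrophil marker. The limit is a point on a continuous range, so the 4 fields are not cell types.

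**Figure D3:**
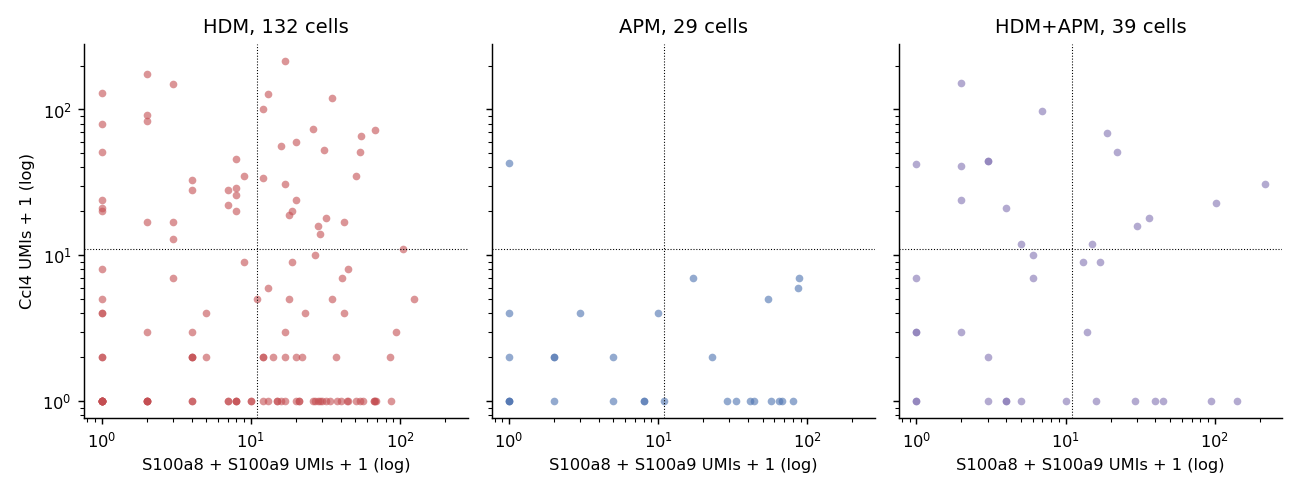
UMIs per granulocyte-like cell of S100a8 and S100a9 together (horizontal) and of Ccl4 (vertical), each plus 1 on a log axis, for HDM, APM and HDM+APM. Dotted lines mark 10 UMIs. Cells high for Ccl4 number 44 in HDM and 16 in HDM+APM, and 1 in APM.

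The first comparison between libraries set HDM+APM against HDM, which differ by the earlier dust exposure. With all cells kept, none of the markers S100a8, S100a9, Ccl3, Ccl4 and G0s2 differed by 2-fold. Of 970 genes tested, 60 (6.19%) were higher and 49 (5.05%) lower in HDM+APM. The median log2 ratio over all genes, with a pseudocount of 50 CPM, was -0.06. S100a8 gave a ratio of 0.85 (0.774 to 0.932), S100a9 0.925 (0.804 to 1.06), Ccl3 0.734 (0.617 to 0.869) and Ccl4 0.752 (0.691 to 0.817). G0s2 was at 941 against 1546 CPM, Il1b at 1255 against 1139 CPM, and Cxcr2 at 428 against 429 CPM. Single cells weighed on these values: 1 of 39 HDM+APM cells held 104 of the 280 S100a9 UMIs and without it the S100a9 ratio was 0.606 (0.511 to 0.715), and without the leading HDM+APM cell for Il1b its ratio was 0.60 (0.364 to 0.951). Without the leading HDM+APM cell for each gene, Ccl3 gave 0.568 (0.468 to 0.686), Ccl4 0.610 (0.556 to 0.668) and G0s2 0.308 (0.171 to 0.518). Without the leading HDM cell instead, these 3 genes gave 0.774 (0.650 to 0.918), 0.813 (0.746 to 0.884) and 0.707 (0.465 to 1.05). S100a9 then gave 0.964 (0.837 to 1.11) and Il1b 1.30 (0.881 to 1.89).

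Of 17 interferon response genes measured, 8 were higher in HDM+APM (6.19% of all genes) and 0 lower (5.05%), and a few cells carried much of the list's UMIs. The 8 were Cxcl10, Ifit3, Ifit1, Isg15, Rsad2, Gbp2, Irf7 and Ifitm3. The list's median log2 ratio was 0.79. Cxcl10, a chemokine for T cells that interferons induce, stood at 79 CPM in HDM (7 UMIs in 4 of 132 cells) and 1797 in HDM+APM (63 UMIs in 7 of 39 cells), a ratio of 22.8 (10.4 to 58.9). Isg15, a ubiquitin-like protein, stood at 1027 CPM in HDM, 3308 in HDM+APM, 369 in APM and 0 in control. Rsad2 (viperin, an antiviral enzyme) stood at 936, 2966, 92.2 and 170 CPM in the same order, and Ifit1, which binds foreign RNA, at 350, 1740, 0 and 0.

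The 3 HDM+APM cells with the most interferon UMIs held 174, 106 and 84, together 49.6% of the list's UMIs in that library, whereas the 3 leading HDM cells held 14.1% of theirs. They carried 14, 8 and 34 neutrophil-list UMIs and 1278, 883 and 917 UMIs in all. The median per cell was 4 UMIs in HDM+APM and 3 in HDM. Cells with 5 or more made up 48.7% (32.4 to 65.2) of HDM+APM and 39.4% (31.0 to 48.3) of HDM, intervals that overlap. These per cell counts were not thinned, and the median depth was 811 UMIs in HDM+APM and 647.5 in HDM. Without the single leading cell of each library, 7 of 17 genes were higher and the median was 0.62. Without the 3 leading cells of each, 2 of 16 were higher, Cxcl10 and Ifit1, and the median was 0.10 against -0.07 over all genes. Cxcl10 then gave a ratio of 5.39. The count of 8 therefore rested largely on 3 of 39 cells. The list's share of UMIs was 2.09% in HDM+APM and 0.961% in HDM with all cells kept. Without the 3 leading cells of each it was 1.16% (1.04 to 1.28) and 0.850% (0.789 to 0.914), still higher in HDM+APM. Those cells were picked by the UMIs compared, and 3 of 39 is a larger part than 3 of 132.

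Other cells of the same libraries gave other values. In T cells 3 of 16 measured interferon genes were higher (2.51% of all genes) and 0 lower (3.88%). In alveolar macrophages 2 of 17 were higher (2.26%) and 1 lower (3.08%). In B cells 1 of 11 was higher (4.44%) and 7 lower (9.42%), where 93.0% of HDM B cells but 10.0% of HDM+APM B cells belonged to the annotated cluster B cells 1. Cxcl10 was higher in T cells as well, at 174 against 13.2 CPM, and in alveolar macrophages, at 45.5 against 8.31.

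Promoter sequence is shown for 4 of the 8 genes that were higher, because the list they belong to is defined by a response to interferon. The windows are the 250 bases before each gene's RefSeq start on GRCm38.p6, read 5′ to 3′ on the gene's strand, and capitals mark matches to GAAANNGAAA or its reverse complement TTTCNNTTTC, letters of the interferon-stimulated response element, searched on both strands and with overlaps allowed (the run in Isg15 holds 3 overlapping matches). Of all 32851 promoter windows, 2.98% held a match, as did 5.78% of the 761 genes tested here that had a window, and 6 of the 8 interferon genes that were higher. Ifitm3 and Irf7 held no match in this window. A match describes letters and does not show a site in use. The list was chosen for its response to interferon, so the count does not bear on the difference between libraries. The fragments are
Isg15, chr4:156200835-156200936, minus strand: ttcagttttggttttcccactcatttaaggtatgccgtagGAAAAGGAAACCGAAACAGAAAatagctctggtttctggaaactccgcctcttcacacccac
Cxcl10, chr5:92349053-92349139, minus strand: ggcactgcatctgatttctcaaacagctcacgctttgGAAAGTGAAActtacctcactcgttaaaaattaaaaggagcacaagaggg
Ifit1, chr19:34640745-34640853, plus strand: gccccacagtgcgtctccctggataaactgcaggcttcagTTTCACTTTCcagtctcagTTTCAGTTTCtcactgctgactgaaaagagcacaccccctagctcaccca
Rsad2, chr12:26456523-26456612, minus strand: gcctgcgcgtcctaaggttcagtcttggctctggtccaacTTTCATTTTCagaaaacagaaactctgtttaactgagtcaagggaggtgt

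**Figure D4:**
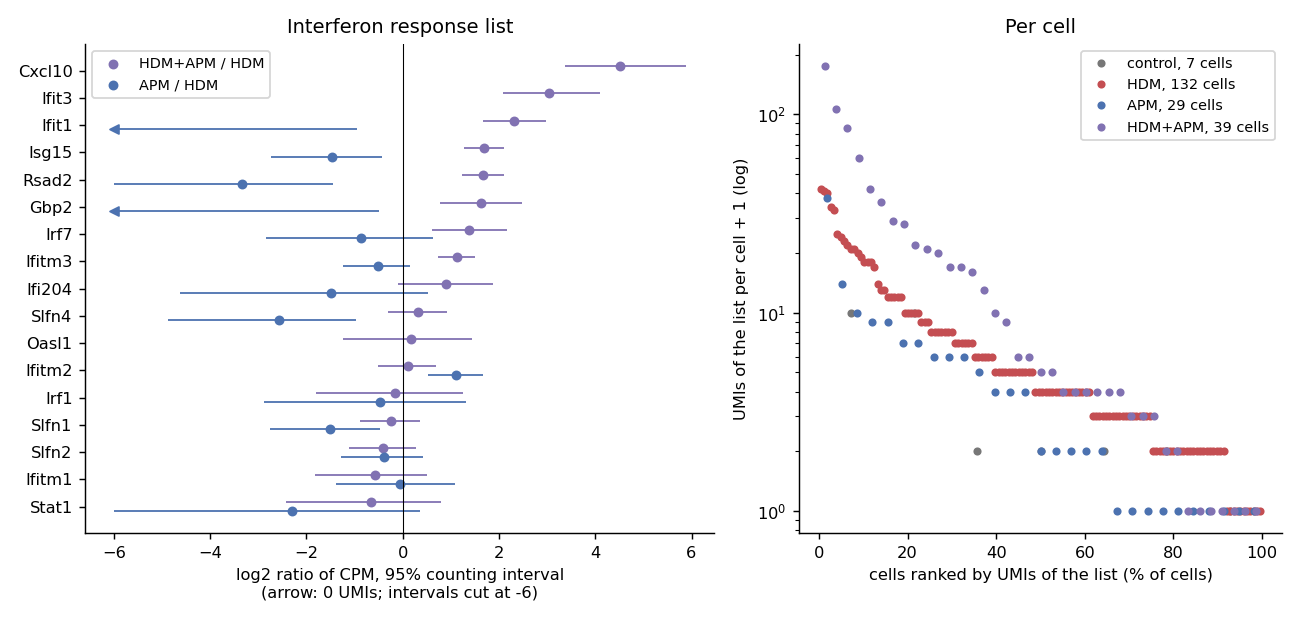
Left, log2 ratio of CPM in granulocyte-like cells for interferon response genes, HDM+APM over HDM and APM over HDM, with 95% counting intervals. Right, UMIs of the list per cell plus 1 on a log axis, with the cells of each library ranked from the most to the fewest along the horizontal axis (in percent of its cells). The top HDM+APM cell holds 174 UMIs and the top HDM cell 41, while the medians are 4 and 3.

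Among genes lower in HDM+APM, Cebpb, a transcription factor of emergency granulopoiesis, stood at 5065 CPM in HDM and 656 in HDM+APM, 7.72-fold lower (5.08 to 12.3), and was found in 107 of 132 and 19 of 39 cells. Cebpb was lower in the other types of HDM+APM as well, at 30.7 against 125 CPM in T cells, 24.3 against 203 in B cells and 641 against 1552 in alveolar macrophages. Csf3r was 2.14-fold lower (1.32 to 3.64), Csf1 2.27-fold (1.41 to 3.86), Mmp9 3.07-fold (1.46 to 7.41) and Pim1, a kinase induced by cytokines, 5.19-fold (2.54 to 12.3). Of 11 receptors measured, Csf3r, Csf2rb and Ifngr2 were lower (5.05% of all genes) and Ccrl2 higher (6.19%), the last at 2.09-fold, or 1.85-fold (1.21 to 2.81) without 1 cell. Ppp2ca, Cox5a and Mrpl57 completed the genes with the lowest ratios, at 1, 1 and 0 UMIs in HDM+APM against 24, 36 and 20 in HDM.

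Genes that other cells make differed in granulocyte-like cells, T cells and alveolar macrophages alike. The haemoglobin genes Hbb-bs, Hbb-bt and Hba-a1 held 0 UMIs in HDM+APM granulocyte-like cells against 195, 39 and 78 in HDM, at least 25.7-fold, 5.14-fold and 10.3-fold lower against a floor of 3 counts over the library's cells. Hba-a2 held 1 against 88 UMIs. In T cells Hbb-bs stood at 34.2 against 1270 CPM and in alveolar macrophages at 21.4 against 1987. Retnla, a product of alternatively activated macrophages, was 8.5-fold higher (5.22 to 14.4) in granulocyte-like cells, at 2111 against 248 CPM, and stood at 1100 against 81.9 CPM in T cells and 2814 against 168 in alveolar macrophages. Scgb1a1, the club cell secretoglobin, and Slpi, an antiprotease of epithelium and neutrophils, were also higher, at 2139 against 496 and 1340 against 181 CPM. Slpi was 7.43-fold higher, or 4.85-fold (2.56 to 9.52) without 1 cell. Vim, an intermediate filament, stood at 456 against 45.1 CPM and Crip1 at 1654 against 203, and both were higher in B cells as well. The part of RNA from other cells in these values was not tested.

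Gm5483 was 7.22-fold higher (2.93 to 20.2) from 20 UMIs in 3 of 39 cells, 13 of them in 1 cell, and 2.58-fold (0.771 to 8.61) without that cell. Ifit3b, near-identical to Ifit3, was 6.22-fold higher, or 3.99-fold (1.89 to 8.73) without 1 cell, and reads of the pair may be split between them. Of 5 measured specific and gelatinase granule genes, Slpi and Lyz2 were higher (6.19% of all genes) and Mmp9 lower (5.05%). Of 12 measured neutrophil markers, 2 were lower (Mmp9 and Csf3r) and 0 higher. Of 13 innate sensing genes, Fcgr4 was higher and 0 were lower.

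The second comparison set APM against HDM, which differ by both dust and allergen, and it shares the HDM library with the first. APM cells held less Ccl4 and Mcl1 and more ferritin light chain and metal response transcripts. Of 855 genes tested, 69 (8.07%) were higher and 140 (16.4%) lower in APM, and the median log2 ratio over all genes was -0.31. Ftl1 alone took 94314 CPM in APM against 16775 in HDM. Scaled without the 10 most abundant genes, 96 were higher and 92 lower and the median was -0.14, so the balance of higher and lower genes depended on the scaling.

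Ccl4 was 7.76-fold lower in APM (6.18 to 9.87), and 42 of its 77 UMIs lay in 1 of 29 cells. Without that cell the ratio was 0.0611 (0.0425 to 0.0853). Ccl3, its neighbour, gave a ratio of 0.891 (0.733 to 1.08), S100a8 1.18 (1.06 to 1.30) and S100a9 1.05 (0.896 to 1.23). T cells and alveolar macrophages of APM also held less Ccl4, at 0 against 452 and 7.75 against 140 CPM.

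Of 12 measured survival and cell death genes, Mcl1, Pim1, Btg2 and G0s2 were lower, against 16.4% of all genes, and 0 were higher. Mcl1 was 6.36-fold lower (2.66 to 19.9), while T cells held 224 against 298 CPM and alveolar macrophages 343 against 382. Csf1 was 9.38-fold lower (3.13 to 46.1) from 3 UMIs, and its ratio without the leading APM cell was 0.0371. Mxd1 was 5.43-fold lower (2.26 to 17.1), a ratio of 0.184 that became 0.115 without the leading APM cell. Csf3r was 2.03-fold lower (1.14 to 3.94), and its ratio of 0.507 (0.261 to 0.905) without the leading HDM cell no longer reached 2-fold. Mmp9 held 1 UMI in APM against 62. Clec4d and Retnlg, 2 other neutrophil markers, were higher, at 3.16-fold (2.08 to 4.76) and 2.34-fold (1.18 to 4.47). Without 1 cell Retnlg was 1.51-fold higher (0.653 to 3.20). Cxcr4, the marrow homing receptor, was 2.6-fold lower (1.40 to 5.36).

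Of the 9 measured members of the Nrf2 and metal response list, 6 were higher (8.07% of all genes) and 0 lower (16.4%), and the list's median log2 ratio was 2.49 against -0.31 over all genes. The 6 were Ftl1, Prdx1 (a peroxiredoxin), Hmox1 (haem oxygenase 1), Slc7a11 (the cystine transporter) and the metallothioneins Mt1 and Mt2. Hmox1 stood at 338 CPM in HDM, 2444 in APM, 998 in HDM+APM and 5771 in control. Of its 53 APM UMIs, 24 lay in 1 cell, and the ratio of APM over HDM was 7.22, or 4.25 (2.46 to 7.32) without it. Prdx1 stood at 327, 2306, 513 and 1867 CPM in the same order, and Ftl1 at 16775, 94314, 33655 and 106246. The control values rest on 34, 11 and 626 UMIs. Other types showed the same direction: in T cells 9 of 11 list members were higher (8.71% of all genes) and in alveolar macrophages 10 of 16 (3.51%), with Ftl1 at 5960 against 1626 CPM and 36771 against 13461. In granulocyte-like cells of HDM+APM against HDM, 2 of 8 measured members were higher, Ftl1 and Hmox1 (6.19% of all genes), and 0 lower (5.05%). The list's median there was 0.63 against -0.06 over all genes. Without the leading HDM+APM cell for each gene, Ftl1 was 1.82-fold (1.68 to 1.97) and Hmox1 1.99-fold (1.10 to 3.54) higher. Ferritin genes have many processed copies, which can share reads.

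**Figure D5:**
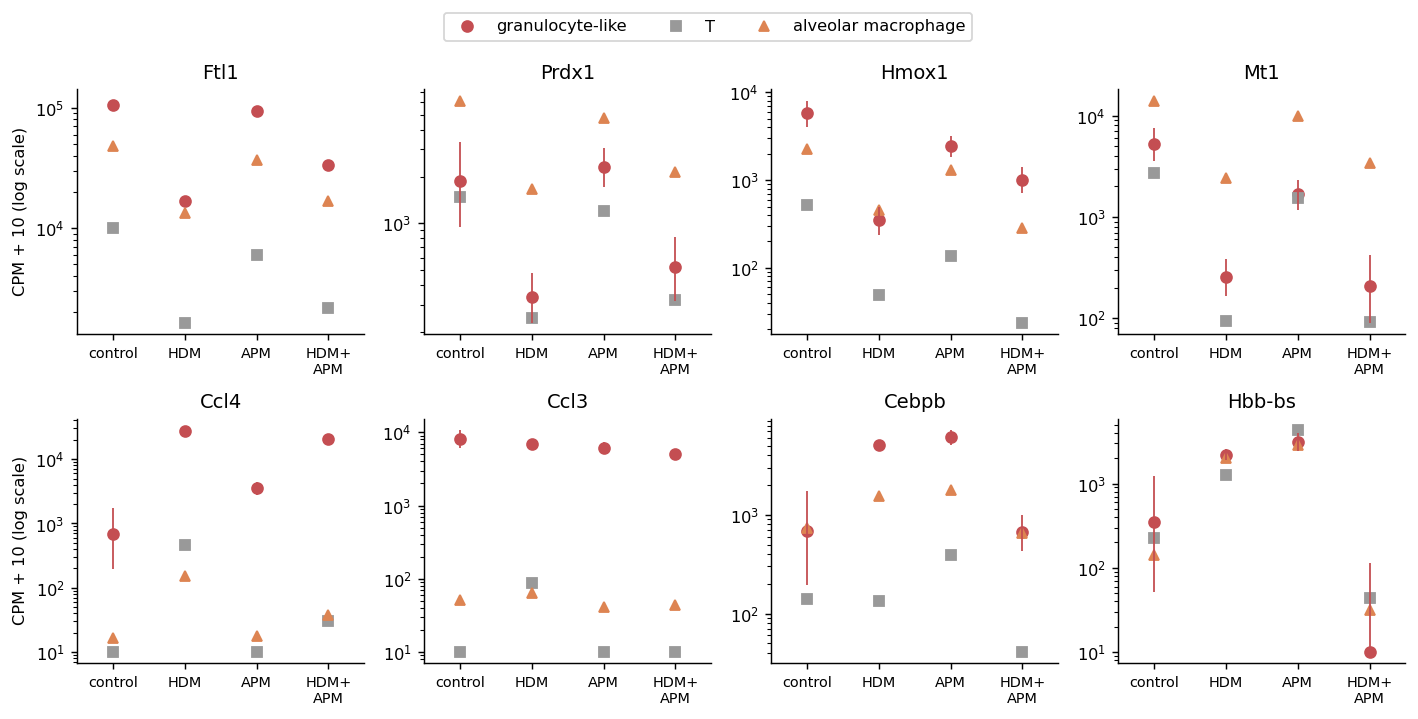
CPM plus 10 on a log axis for 8 genes in granulocyte-like cells, T cells and alveolar macrophages of the 4 libraries, with 95% counting intervals for granulocyte-like cells. Ftl1 lies higher in control and APM than in HDM and HDM+APM in all 3 types, while Ccl3 lies between 5048 and 8147 CPM in granulocyte-like cells.

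Interferon response genes were lower in APM for 6 of 14 measured (16.4% of all genes) and higher for 1, Ifitm2 (8.07%), with a median log2 ratio of -1.24, or -0.91 with genes at 0 UMIs set to the floor of 3. Ifitm2 was 1.86-fold higher (1.21 to 2.80) without 1 cell. Isg15 was 2.78-fold lower (1.35 to 6.64), a ratio of 0.359 that became 0.139 without the leading APM cell. Ifit1 held 0 UMIs against 31, at least 2.53-fold lower. Ifi47 and Rnf213, both inducible by interferon, held 0 UMIs against 26 and 31, at least 2.12-fold and 2.53-fold lower. In APM alveolar macrophages 14 of 18 interferon genes were lower (6.75% of all genes) and in T cells 6 of 12 (3.02%).

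Further genes with the highest ratios in APM were Hspa1a, Il1f9, Slpi, Esd, Gm5483, Bpifa1 and Taldo1. Il1f9, an interleukin 36 cytokine, stood at 1660 CPM in APM, 102 in HDM, 456 in HDM+APM and 1527 in control, and was found in 16 of 29 APM cells. Taldo1, of the pentose phosphate pathway, stood at 2306 against 293 CPM in 19 of 29 and 22 of 132 cells. Of the 20 genes of the hypoxia and glycolysis list, only Gapdh, Aldoa and Pkm reached 20 UMIs. All 3 were higher (8.07% of all genes), though Gapdh was 2.23-fold higher (0.926 to 5.04) without 1 cell. Hspa1a, a heat shock protein, rested on few cells: 28 of its 47 UMIs lay in 1 of 5 positive APM cells, and the ratio of 19.2 became 8.35 (3.69 to 20.1) without it. Il1b was 2.71-fold higher (1.96 to 3.73) but lay in 7 of 29 cells, and without the leading cell the ratio was 1.55 (1.03 to 2.28). Bpifa1 and Scgb1a1, epithelial products, were higher in APM T cells and alveolar macrophages too, with Bpifa1 at 687 against 33 and 480 against 33.2 CPM.

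Of 9 measured mitochondrial genes, 5 were lower in APM, against 16.4% of all genes (mt-Nd3 at 0 UMIs against 33), and the summed mitochondrial share was 0.530% against 1.08% in HDM. Clec12a, an inhibitory receptor of myeloid cells, Creb5, Tomm22 and Sft2d2 also held 0 UMIs in APM against 31, 28, 28 and 25, at least 2.53, 2.28, 2.28 and 2.04-fold lower. MHC class II genes were lower for 2 of 4, Cd74 and H2-Eb1, against the same 16.4%. With 29 cells, fewer positive cells and less RNA per cell cannot be told apart for genes held by a handful of cells.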

How the data were processed

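Cells of 4 lavage libraries, each from 7 pooled mice and 1 per group, were grouped by the treatment labels. The authors deposited UMI counts for 13838 genes and 9925 cells, with a cell annotation that gives each cell's library and type. Cell Ranger 2.2.0, Seurat 2.3.4 and the mm10 build are named per the submitters' processing notes, without their roles, and the cell filters are not given in the sources used here. The shallowest deposited cell held 496 UMIs. No doublet caller was run and all cells were kept.

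The cells, the 31 lists (10 of cell type markers, 19 of pathways, the others of RNA quality) and the settings were chosen with earlier results of these data known. UMIs were summed per library and type and scaled to CPM with Python 3.11.15, numpy 2.4.6, scipy 1.17.1, pandas 2.3.3 and matplotlib 3.10.9. Intervals are exact (Poisson for CPM, binomial for shares, conditional binomial for ratios) at the 95% level. With 1 library per group no test was possible. A call required a ratio of at least 2-fold with an interval excluding 1, over at least 20 UMIs. Log2 ratios of lists used a pseudocount of 50 CPM. A gene at 0 UMIs was set to 3 counts for a lower bound. Named genes were the 15 of highest ratio over other cells with at least 50 UMIs, the 10 most abundant, up to 8 higher and 8 lower per comparison, and members of the lists. Genes named for a single cell's weight were added after their values were seen. Shares of cells with a UMI used cells thinned to 500 UMIs. Promoters are RefSeq windows on GRCm38.p6, and gene positions come from the GENCODE annotation of GRCm38. Alternatives changed the scaling, the thinning, the UMI minimum, the fold, the pseudocount, the depth of cells kept and a subtraction of 5% free RNA. Leaving out the 1 or 3 cells richest in interferon UMIs was added after seeing the data.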

Additional observations from a re-analysis of the deposited data

Results flagged for a closer look

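In HDM+APM against HDM, 5 interferon-inducible genes were higher in granulocyte-like cells and lower in B cells, with intervals on opposite sides of 1. The difference between the cell types was not tested, since each group is 1 library. Isg15 gave a ratio of 3.22 in granulocyte-like cells and 0.200 (0.110 to 0.376) in B cells, at 16.4 against 82.0 CPM. Irf7, a transcription factor of the interferon response, gave 2.61 and 0.116 (0.0603 to 0.227). Ifit3 gave 8.22 and 0.138 (0.0635 to 0.311), and Ifit1 4.97 and 0.286 (0.119 to 0.788). Ifi47, an interferon-inducible GTPase, gave 2.04 (1.09 to 3.77) and 0.445 (0.263 to 0.799). The B cells of the libraries fell in different clusters of the deposited annotation: 93.0% of those of HDM were in the cluster B cells 1 and 90.0% of those of HDM+APM in B cells 2, so that a change of cluster and a change within B cells cannot be told apart. They numbered 128 in HDM, with a median of 1382.5 UMIs, and 449 in HDM+APM, with a median of 5226. In granulocyte-like cells the 3 richest HDM+APM cells carried 49.6% of the list's UMIs.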

How the results depend on the processing

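No paired analysis was possible because each group is 1 library, and no library could be left out. No called gene ratio of those recomputed changed direction, but the median of the chemokine list in HDM+APM, -0.04, became 0.62 in thinned cells. Among cells of at least 1000 UMIs the granulocyte-like share was 0.0517% in control, 0.285% in HDM, 0.0536% in APM and 0.946% in HDM+APM. Of cells other than alveolar macrophages it was 19.4%, 16.6% and 15.0% in control, HDM and APM, with intervals that overlap. In APM against HDM, lower genes numbered 92 in cells thinned to 500 UMIs and 92 when scaled without the 10 most abundant genes, against 140. Without a minimum of UMIs, 131 genes were higher in APM and 152 in HDM+APM, and the median of the Nrf2 and metal list in APM was 1.72. Without the genes macrophages share, 2.27% of HDM cells and 0% of APM and HDM+APM cells held an eosinophil UMI. Cells with both marker lists at 1 or more UMIs numbered 21 in HDM, 7 in APM and 8 in HDM+APM, and at 3 or more UMIs 1 in HDM. The causes were not tested. Without the 3 interferon-richest cells of each library, HDM+APM had 40 higher genes in place of 60, and 73 of its 109 calls remained. In thinned cells 52 of the 109 calls in HDM+APM and 119 of the 209 in APM remained. Of the ratios of named genes recomputed, 18 of those over other cells, 1 in APM and 3 in HDM+APM left their counting interval. The 29 APM and 39 HDM+APM cells limit all ratios, and the 7 control cells allow no comparison.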

Other observations

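Cebpb and the beta globin gene Hbb-bs were both low in HDM+APM and high in HDM and APM. In granulocyte-like cells Cebpb stood at 679 CPM in control, 5065 in HDM, 6134 in APM and 656 in HDM+APM, and Hbb-bs at 339, 2200, 3136 and 0 CPM. Alveolar macrophages held 724, 1552, 1765 and 641 CPM of Cebpb and 131, 1987, 2827 and 21.4 CPM of Hbb-bs in the same order. The control values in granulocyte-like cells are 4 and 2 UMIs and set no order. With 1 library per group, exposure and library cannot be told apart.

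The 7 control cells held 147 UMIs of Cxcl2 (24949 CPM) in 4 cells, 93 of them in 1 cell. They held 76 UMIs of Slpi (12899 CPM), 66 in 1 cell. Retnla held 0 UMIs in control and APM granulocyte-like cells, against 22 in HDM and 74 in HDM+APM.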
